A study of Mus musculus with 8 samples.

Results

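The 10 genes encoding the core cardiac transcription factors, Nkx2-5, Gata4, Gata6, Tbx5, Tbx20, Mef2a, Mef2c, Hand1, Hand2 and Isl1, were followed in ventricular RNA of mouse embryos at E10.5. They were chosen by name, with earlier results of these data known. All 10 of 10 were found among the 55291 gene symbols of the count table and in the table of per-length levels. The study compared 4 Pkn2 cKO libraries (Pkn2 fl/fl carrying XMLC2-Cre, labelled as a cardiomyocyte-specific knockout) with 4 libraries of Cre-negative Pkn2 fl/fl littermates, on a C57BL/6N background. The series lists the 4 libraries of a group as biological replicates, and how many embryos each came from is not given in the sources used here. Both groups carry the floxed alleles and only the cKO group carries Cre, so an effect of Cre itself and the loss of Pkn2 cannot be told apart. The driver is described as cardiomyocyte-specific, while the RNA is from all cells of the ventricular tissue.

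These factors work as a mutually reinforcing network in the embryonic heart. NKX2-5 (a homeodomain protein), GATA4 and GATA6 (zinc finger proteins), TBX5 and TBX20 (T-box proteins), the MADS-box proteins MEF2A and MEF2C and the basic helix-loop-helix proteins HAND1 and HAND2 bind DNA together at cardiac enhancers and drive chamber, conduction and sarcomere genes. ISL1, a LIM homeodomain protein, marks progenitors of the second heart field and is switched off as they become ventricular cardiomyocytes. HAND1 is known for the left ventricle and outflow tract, HAND2 for the right ventricle, and TBX5 for the left ventricle and atria.

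Libraries held 47559845 to 56660938 counts, and the groups' totals overlapped. Pkn2 itself was at 81.2 ± 3.07 CPM (CPM being the count relative to the TMM-scaled library size) in cKO, 56.3% of the 144 ± 9.85 CPM of controls (SD, n = 4 each). All 10 cardiomyocyte markers, among them Tnnt2, Myh6 and Actn2, were abundant, with a summed level of 24145 to 27252 CPM in cKO and 23600 to 26139 CPM in controls, and 0 of 10 passed the test by edgeR (2 at an unadjusted p under 0.05). The endothelial and endocardial markers moved with genotype: 10 of 10 had a positive log2 fold change, 5 of 10 passed the test (Pecam1, Cdh5, Nfatc1, Emcn and Tie1), and their summed level was 1678 to 2061 CPM in cKO against 1318 to 1559 CPM in controls. Of 7 macrophage markers 2 passed (C1qb and C1qc), and all 7 had a positive log2 fold change and an unadjusted p under 0.05. Their summed levels were 7.65 to 33.6 CPM in cKO against 4.07 to 8.57 CPM in controls. Over all genes tested, 0.858% passed and 12.8% had an unadjusted p under 0.05. By edgeR, 0 of 7 epicardial (2 at an unadjusted p under 0.05), 0 of 8 erythroid (0), 0 of 6 cushion (0), 0 of 5 hepatic (4), 0 of 4 neural (0) and 0 of 2 foregut markers (0) that were tested passed. On the first principal component (41% of the variance) the genotypes were apart. cKO replicates 1 to 4 were at −11.4, −1.98, 2.10 and −15.4, and controls ran from 4.09 to 8.23. Of the cKO libraries, replicates 1 and 4 lay farthest from the controls on this axis and had the highest endothelial scores. Results are therefore also given without these 2 libraries together, an alternative chosen after seeing the data. That fit leaves out the cKO libraries that differed most from controls on this axis.

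Hand1 was the 1 member that passed the test by edgeR, and it was lower in cKO. Its level was 67.1, 80.7, 73.4 and 58.3 CPM in cKO replicates 1 to 4 and 92.5, 99.1, 94.7 and 102 CPM in control replicates 1 to 4. Every cKO library lay below every control library, and the gap between the groups was wider than the range of the controls. The means were 69.9 ± 9.52 and 96.9 ± 4.10 CPM (SD, n = 4 each), so that cKO ventricles held 72.1% of the control level. The log2 fold change was −0.47 (standard error 0.080, 95% interval −0.64 to −0.30), with an adjusted p of 0.0112 by the quasi-likelihood test of edgeR, adjusted by Benjamini-Hochberg over the 26820 genes tested (those with 8 or more counts in all). The two-sided exact permutation test on its log2 CPM gave p = 0.0286, the smallest that 4 libraries against 4 allow. Across all genes tested, 0.858% passed the FDR threshold (an adjusted p of at most 0.05) in either direction and 0.343% passed it as lower in cKO (0.515% as higher), and among the 10 factors 1 did. Of the 9858 genes with a mean of at least 10 CPM, a level that 9 of the factors reach, 1.65% passed in either direction and 0.751% as lower.

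Hand1 (ENSMUSG00000037335) lies on the minus strand of chromosome 11, from 57828705 to 57832818 by the positions in the deposited table, which are those of GRCm38. No other gene of that table overlapped it or lay within 2000 bases of it. When the libraries were scaled to the cardiomyocyte markers in place of all genes, the log2 fold change was −0.46 (adjusted p = 0.00906, edgeR), and without cKO replicates 1 and 4 it was −0.32 (adjusted p = 0.0446, edgeR). The call was lost without cKO replicate 1 (log2 fold change −0.45, adjusted p = 0.0524, edgeR), without control replicate 4 (−0.45, adjusted p = 0.0583, edgeR) and with limma on log2(TPM + 1) (−0.45, adjusted p = 0.252), where the direction was kept. In bulk tissue, fewer cells that express a gene and less of its RNA per cell cannot be told apart.

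**Figure D1:**
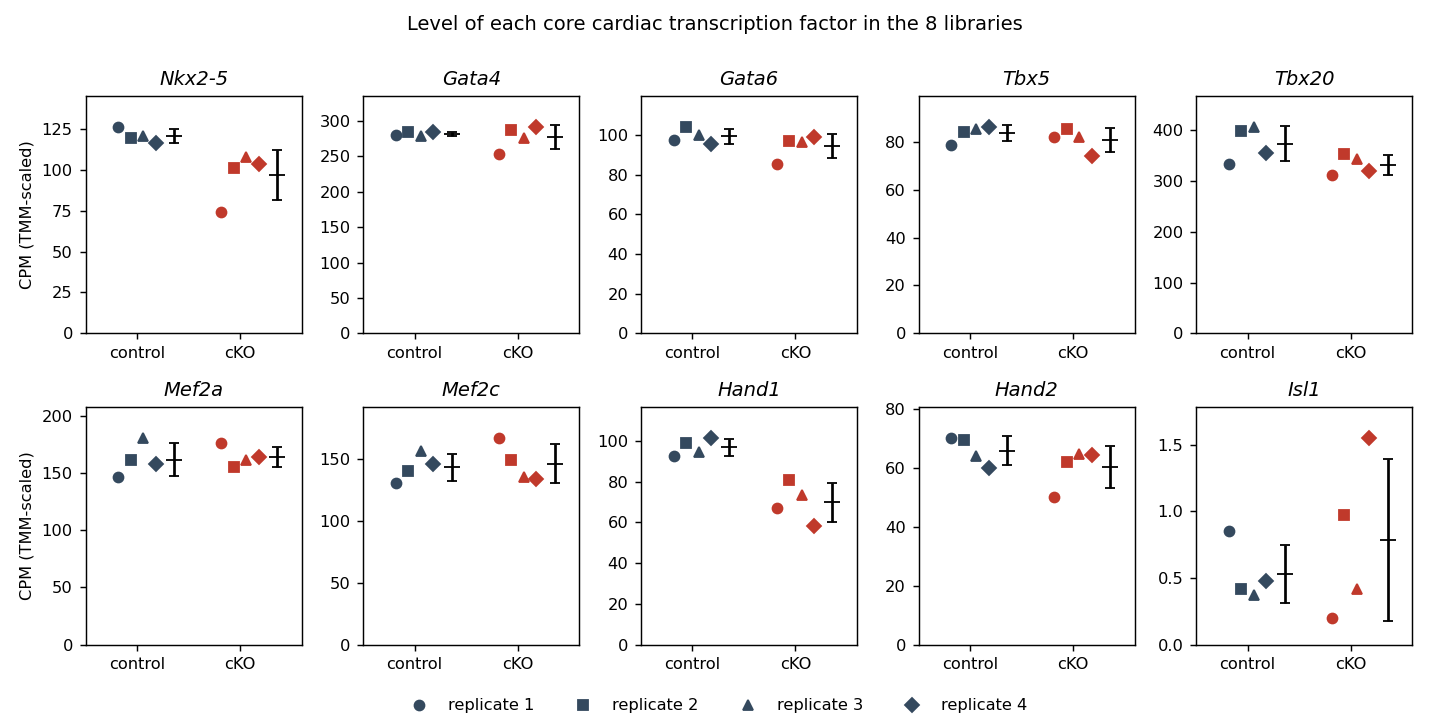
Level of each of the 10 factors in the 8 libraries, in CPM on a linear axis that starts at 0, with 1 point per library (shape by replicate number, controls dark, cKO red) and the mean ± SD of each group beside it. The groups are apart for Hand1, at 58.3 to 80.7 CPM in cKO and 92.5 to 102 CPM in controls, and for Nkx2-5, where cKO replicate 1 is the lowest point, and they overlap for the other 8 factors.

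Nkx2-5, which encodes the homeodomain factor of early heart progenitors and cardiomyocytes, was also lower in every cKO library, but did not pass the test over all genes. Its level was 74.5, 102, 108 and 104 CPM in cKO replicates 1 to 4 and 127, 120, 121 and 116 CPM in control replicates 1 to 4. The groups did not overlap, and cKO replicate 1 lay well below the other 3 cKO libraries. The means were 97.0 ± 15.2 and 121 ± 4.25 CPM (SD, n = 4 each), and the log2 fold change was −0.32 (standard error 0.089, 95% interval −0.51 to −0.13, unadjusted p = 0.00253, adjusted p = 0.109, edgeR). The two-sided exact permutation test gave p = 0.0286, the smallest possible. Groups that do not overlap were seen for 2 of the 10 factors and for 6.91% of all genes tested (11.1% of the 9858 genes with a mean of at least 10 CPM).

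Part of the size of the Nkx2-5 difference came from cKO replicate 1: without it the log2 fold change was −0.21 (unadjusted p = 0.00301, adjusted p = 0.195, edgeR). The unadjusted p was 0.00253 with all 8 libraries (edgeR), and the groups did not overlap without this library either. Over all genes, 71 passed in the fit without it and 230 in the main fit. With DESeq2 the value was −0.31 with an adjusted p of 0.0286 (Wald test), which passes the FDR threshold as 3.24% of all genes did with that tool, and with edgeR and no filter on low counts the adjusted p was 0.0101. Nkx2-5 (ENSMUSG00000015579) spans 26838664 to 26841565 on the minus strand of chromosome 17 (GRCm38).

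For the promoter windows, 6 of the 10 factors had an entry in the RefSeq table used (GRCm38.p6). The 250 bases before the start are shown for Nkx2-5, the factor of these 6 with the lowest p, and for Hand2, the paralogue of Hand1, with matches to a fixed set of motifs in capitals. All motifs were searched on both strands. For the zinc finger factors the letters were AGATAA or, as a variant site, TGATAA. The NK2 homeodomain motif was AAGTG, and the T-box motif was AGGTGT. The E-box, bound by HAND proteins with their partners, was CANNTG, and the MEF2 motif was TAAAAATA. The window of Nkx2-5 is chr17:26841566-26841815 on the minus strand and that of Hand2 is chr8:57320733-57320982 on the plus strand, both written 5′ to 3′ in the direction of the gene.
Nkx2-5: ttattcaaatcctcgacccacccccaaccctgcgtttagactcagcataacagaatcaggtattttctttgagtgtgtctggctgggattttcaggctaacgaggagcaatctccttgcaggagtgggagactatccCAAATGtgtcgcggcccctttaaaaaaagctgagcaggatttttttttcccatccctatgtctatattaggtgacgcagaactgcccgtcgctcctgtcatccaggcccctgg
Hand2: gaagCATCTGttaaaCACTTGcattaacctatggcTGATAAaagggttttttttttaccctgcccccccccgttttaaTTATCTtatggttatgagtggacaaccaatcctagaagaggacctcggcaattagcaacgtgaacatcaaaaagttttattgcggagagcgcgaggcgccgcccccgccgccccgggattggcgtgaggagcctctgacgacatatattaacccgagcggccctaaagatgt
The Nkx2-5 window held 1 E-box (CAAATG, 113 to 108 bases before the start) and no match to the other motifs. The Hand2 window held 2 E-boxes, 1 match to AAGTG that overlaps the second E-box, and 1 match to each GATA motif. An E-box was present in 66.2% of all 32851 windows of this length, AAGTG in 40.7%, AGGTGT in 11.8%, AGATAA in 9.99%, TGATAA in 7.94% and TAAAAATA in 2.45%. A match is a run of letters and was not measured here as a bound site.

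Hand2, the paralogue of Hand1, was measured at 50.02, 62.3, 64.8 and 64.6 CPM in cKO replicates 1 to 4 and 70.3, 69.5, 64.2 and 59.9 CPM in control replicates 1 to 4. The groups overlapped, and the log2 fold change was −0.13 (95% interval −0.30 to 0.04, adjusted p = 0.572, edgeR), or −0.04 without cKO replicate 1. The Hand2 count carries a further limit. On GRCm38 the antisense gene Hand2os1 (ENSMUSG00000100510, chromosome 8, minus strand, 57281117 to 57324233) covers most of Hand2 (ENSMUSG00000038193, plus strand, 57320983 to 57324633). Hand2os1 held 24319 counts over the 8 libraries, 93.4% of the 26041 counts of Hand2. The kit does not mark strand, so reads from the stretch that the 2 genes share cannot be assigned to either by strand. How such reads were counted is not stated, and reads of the 2 genes may be mixed. Hand2os1 itself had means of 59.5 CPM (cKO) and 58.8 CPM (control) (log2 fold change 0.02, adjusted p = 0.963, edgeR).

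The ratio of the per-length levels (TPM, the length-scaled transcript level computed by the authors) of Hand1 to Hand2 was 1.02, 1.08, 0.972 and 0.796 in cKO replicates 1 to 4, against 1.18, 1.25, 1.28 and 1.44 in control replicates 1 to 4. Its mean was 0.967 ± 0.122 in cKO and 1.29 ± 0.109 in controls (SD, n = 4 each), and the groups did not overlap in TPM. By CPM they did overlap. Hand1 and Hand2 were at 67.1 and 50.02 CPM in cKO replicate 1 and at 92.5 and 70.3 CPM in control replicate 1. By these values the ratio was higher in the cKO library. How often such ratios separate the groups over other gene pairs was not computed. The overlap of Hand2 with Hand2os1 limits this ratio too. The ratios within the other families overlapped between the groups. Gata4 to Gata6 was 2.82 ± 0.0463 in cKO and 2.74 ± 0.0985 in controls, Tbx5 to Tbx20 was 0.541 ± 0.0267 and 0.4997 ± 0.0361, and Mef2a to Mef2c was 0.948 ± 0.0956 and 0.954 ± 0.0348.

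Of the GATA factors, Gata4 (ENSMUSG00000021944, chromosome 14, minus strand, 63198922 to 63245271) was at 254, 287, 276 and 292 CPM in cKO replicates 1 to 4, and its 4 control libraries lay between 279 and 285 CPM. Its log2 fold change was −0.03 (95% interval −0.15 to 0.09, adjusted p = 0.917, edgeR). Gata6 (ENSMUSG00000005836, chromosome 18, plus strand, 11052470 to 11085635) ranged from 85.3 to 98.8 CPM in cKO and from 95.5 to 104 CPM in controls, a log2 fold change of −0.07 (95% interval −0.20 to 0.05, adjusted p = 0.691, edgeR). For both GATA genes the lowest of the 8 values was that of cKO replicate 1, without which Gata6 was at −0.02.

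Of the T-box factors, Tbx20 had the third lowest p among the 10. This factor, which represses Tbx2 in chamber myocardium, was at 311, 353, 344 and 319 CPM in cKO replicates 1 to 4 and at 334, 398, 408 and 355 CPM in control replicates 1 to 4. The groups overlapped, with control replicate 1 inside the cKO range, and the log2 fold change was −0.17 (95% interval −0.32 to −0.02, unadjusted p = 0.0257, adjusted p = 0.303, edgeR). Over the fits without a library it ran from −0.22 to −0.13. The unadjusted p by edgeR was 0.0935 without cKO replicate 1, 0.0637 without cKO replicate 4, and 0.109 and 0.102 without control replicates 2 and 3. Without any other single library it lay between 0.0080 and 0.0268. Tbx5 ranged from 74.0 to 85.3 CPM in cKO and from 78.7 to 86.4 CPM in controls, with a log2 fold change of −0.05 (95% interval −0.17 to 0.07, adjusted p = 0.808, edgeR), or −0.0016 without cKO replicate 4. Tbx20 (ENSMUSG00000031965) lies on chromosome 9, minus strand, 24718138 to 24774303, and Tbx5 (ENSMUSG00000018263) on chromosome 5, plus strand, 119834663 to 119885219.

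The MEF2 factors, activators of muscle genes, had log2 fold changes near 0. Mef2a ranged from 155 to 176 CPM in cKO and from 147 to 181 CPM in controls, with a log2 fold change of 0.02 (95% interval −0.12 to 0.16, adjusted p = 0.943, edgeR). Mef2c ranged from 134 to 167 CPM in cKO and from 130 to 156 CPM in controls, with a log2 fold change of 0.03 (95% interval −0.13 to 0.19, adjusted p = 0.929, edgeR). Without cKO replicate 1, both values turned negative, to −0.01 for Mef2a and −0.03 for Mef2c. Mef2a (ENSMUSG00000030557) spans 67231163 to 67372858 on the minus strand of chromosome 7, and Mef2c (ENSMUSG00000005583) spans 83504034 to 83667080 on the plus strand of chromosome 13. Within Mef2a, on the same strand, lie 2 predicted genes, Gm44667 and Gm44668, with 1351 and 35 counts against 67094 of Mef2a.

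Isl1 (ENSMUSG00000042258, chromosome 13, minus strand, 116298281 to 116309689) was nearly absent from the ventricular RNA. It had 10, 47, 20 and 87 counts in cKO replicates 1 to 4 and 46, 20, 21 and 24 counts in control replicates 1 to 4, or 0.786 ± 0.608 and 0.529 ± 0.219 CPM (SD, n = 4 each). Both the lowest and the highest value came from cKO libraries, and the log2 fold change was 0.57 with a 95% interval of −0.44 to 1.59 (adjusted p = 0.710, edgeR), so that no difference was detected against this spread. It was 0.0023 without cKO replicate 4 and 0.90 without cKO replicate 1. In the table as a whole, 64% of the values from 1 to 20 were even, where whole numbers with no such bias give about as many odd ones, and 53.1% of the values from 21 to 100 were. Counts this low may therefore stand for fewer independent fragments than their number gives, which was not tested.

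**Figure D2:**
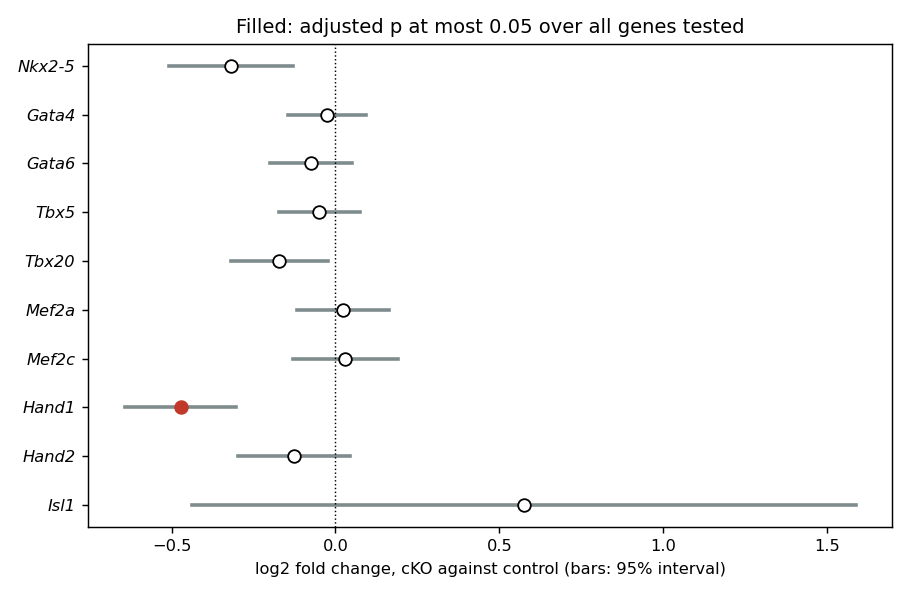
Log2 fold change of each factor, cKO against control, with its 95% interval from edgeR's quasi-likelihood fit (horizontal axis, log2 scale). Hand1, at −0.47, is the filled point that passed the threshold over all genes, the intervals of Nkx2-5 and Tbx20 also lie below 0 without passing it, and that of Isl1 spans −0.44 to 1.59.

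Described together, 7 of the 10 factors had a negative log2 fold change and 3 a positive one, with a median of −0.06, while 50.2% of all genes tested were negative (59.2% of those with a mean of at least 10 CPM) and their median was −0.00085. An unadjusted p under 0.05 was found for 3 of the 10 factors and for 12.8% of all genes tested. The cKO libraries were more spread than the controls for 8 of the 10 factors (SD of log2 CPM), as for 65.1% of the genes with a mean of at least 10 CPM. The spread was 0.25 against 0.050 for Nkx2-5, 0.20 against 0.061 for Hand1 and 0.090 against 0.014 for Gata4. Within the cKO group, cKO replicate 1 was the lowest library for 6 of the 10 factors (Nkx2-5, Gata4, Gata6, Tbx20, Hand2 and Isl1) and cKO replicate 4 for 3 (Tbx5, Mef2c and Hand1).

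Levels per length were compared as TPM. Gata4 was the most abundant at 146 ± 6.86 TPM (SD over the 8 libraries), followed by Nkx2-5 at 121 ± 18.2, Hand1 at 76.9 ± 14.4, Tbx20 at 70.9 ± 6.95, Hand2 at 68.2 ± 4.66, Mef2c at 62.6 ± 6.52, Mef2a at 59.3 ± 4.48, Gata6 at 52.4 ± 3.22, Tbx5 at 36.7 ± 1.96 and Isl1 at 0.454 ± 0.290 TPM. The first 9 spanned 3.96-fold, and the mean of Tbx5 was 80.8 times that of Isl1. Neighbours in this order were compared within each library by a two-sided exact sign-flip permutation test on log2 TPM, with adjustment over 9 pairs. The steps from Gata4 to Nkx2-5, Nkx2-5 to Hand1, Mef2a to Gata6, Gata6 to Tbx5 and Tbx5 to Isl1 had the same direction in 8 of 8 libraries (adjusted p = 0.0141 each, exact, from the smallest p that 8 libraries allow). The steps between Hand1, Tbx20, Hand2, Mef2c and Mef2a did not pass over the 8 libraries, with an adjusted p from 0.117 to 0.250 (exact). These 8 libraries pool both groups, and the place of Hand1 differed between them. In controls the order of the means was the same, with Hand1 at 88.8 ± 5.22 TPM (n = 4) and above Tbx20 in 4 of 4 libraries. In cKO Hand1, at 65.0 ± 8.77 TPM (n = 4), lay below Tbx20 (67.5 TPM) and Hand2 (67.3 TPM) and was above Tbx20 in 1 of 4 libraries.

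**Figure D3:**
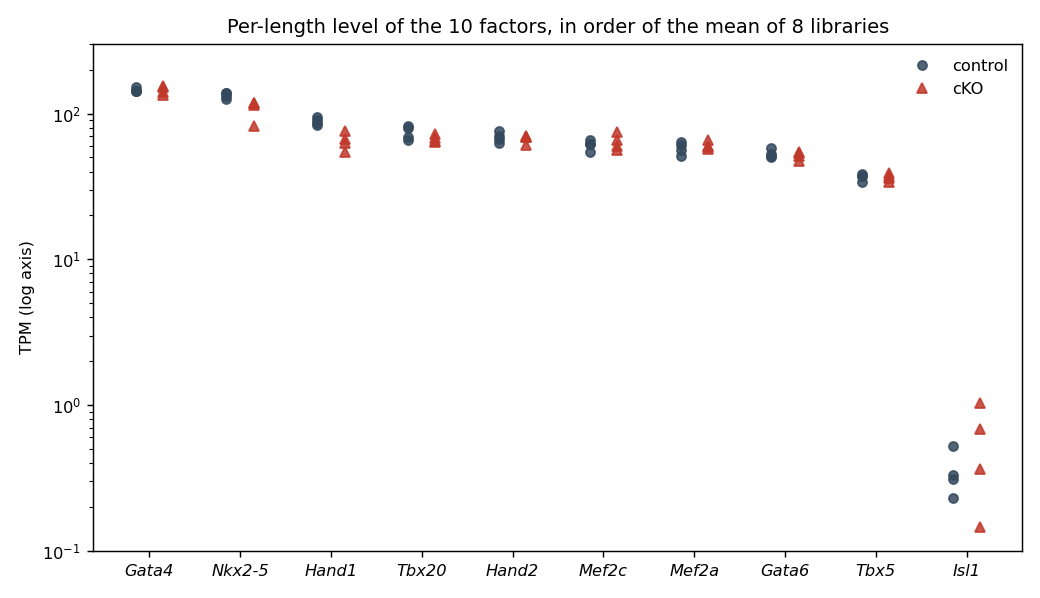
TPM of the 10 factors (vertical log axis) in order of their mean over the 8 libraries, with 1 point per library, controls as dark circles and cKO as red triangles. Gata4 is highest at a mean of 146 TPM, Hand1 to Mef2a lie close together between 59.3 and 76.9 TPM, and Isl1 lies at 0.454 TPM.

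The genes whose pattern over the 8 libraries was most like that of each factor were taken from the genes with a mean of at least 10 CPM by Pearson's r of log2 CPM, as a description without a test. Closest of all was Alcam, which encodes a cell adhesion molecule of the immunoglobulin superfamily, to Hand1 (r = 0.998, Spearman's rho = 0.976, n = 8). Within the groups, each library taken relative to its group mean, their r was 0.994. Alcam was at 126, 156, 139 and 108 CPM in cKO replicates 1 to 4 and at 181, 190, 180 and 201 CPM in control replicates 1 to 4, so that the 4 cKO libraries had the same order of levels as for Hand1. It fell by 0.51 on the log2 scale (standard error 0.088, adjusted p = 0.0125, edgeR), and it was the 1 gene of the 20 so chosen that passed the test. Its choice used the same libraries, so this is not independent of the Hand1 result.

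For Nkx2-5 the closest genes were Esrra, an orphan nuclear receptor of oxidative metabolism (r = 0.992), and Egln2, a prolyl hydroxylase (r = 0.987). For the other factors they were Snx18 and Slc15a4 (Gata4), Rnpepl1 and Enpp1 (Gata6), Celf1 and Dhx15 (Tbx5), Psd3 and Rassf8 (Tbx20), Lamp2 and Erbin (Mef2a), Ttbk2 and Tspan2 (Mef2c), Cox14 and Tbcc (Hand2), and Ncoa5 and E2f4 (Isl1). Over the 20 pairs r ran from 0.953 to 0.998, chosen from 9857 genes (9858 for Isl1), and without the 2 libraries farthest from the median of the factor the lowest r was 0.674. Each r is the highest or second highest of all these genes over 8 libraries, and all points share libraries and depth.

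**Figure D4:**
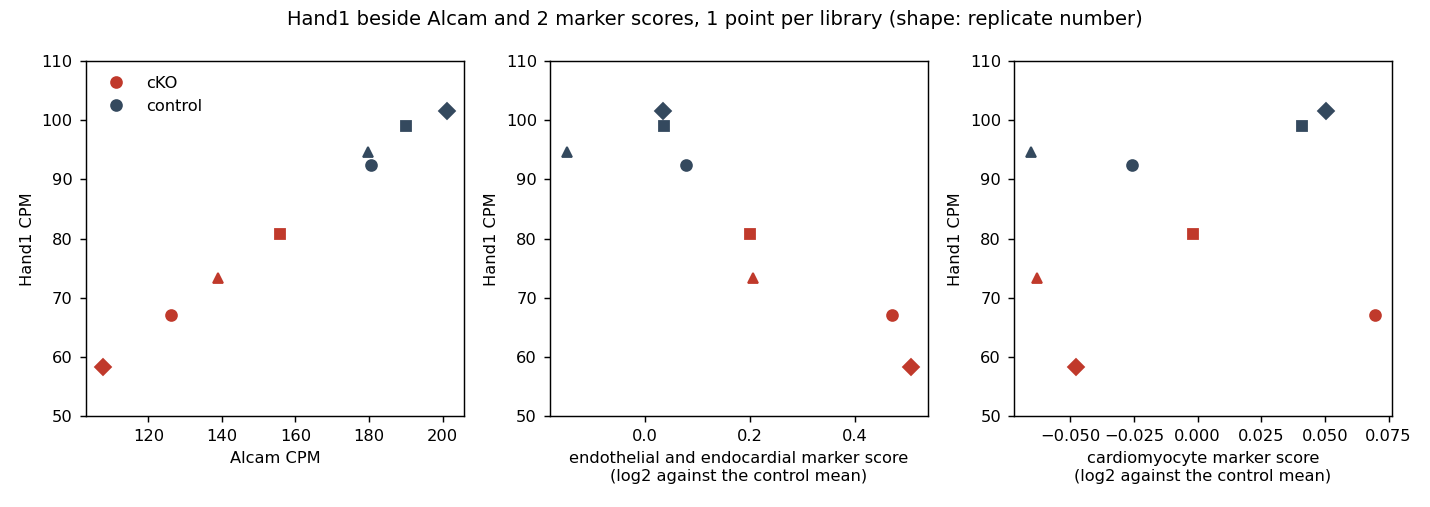
Hand1 in CPM (vertical axis, from 50 to 110) beside Alcam in CPM, the endothelial and endocardial marker score and the cardiomyocyte marker score of the same library (mean log2 CPM of 10 markers each, relative to the control mean), with 1 point per library, cKO red and control dark, shape by replicate number. Hand1 and Alcam rise together over the 8 libraries, cKO replicates 1 and 4 have the highest endothelial scores, 0.47 and 0.51, and the lowest Hand1, and the cardiomyocyte scores of the groups overlap.

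In that plot, the endothelial score was 0.47, 0.20, 0.21 and 0.51 in cKO replicates 1 to 4 and between −0.15 and 0.08 in controls, so that Hand1 was lowest where this score was highest. The cardiomyocyte score was 0.07, −0.0018, −0.06 and −0.05 in cKO replicates 1 to 4 and between −0.07 and 0.05 in controls. The part of the endothelial shift in the Hand1 result was not tested. The fit without cKO replicates 1 and 4, given above, cannot decide this. The cKO replicates it keeps, 2 and 3, still had scores of 0.20 and 0.21, above all controls. It also leaves out the cKO libraries with the lowest Hand1.

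The other genes around the network were read from 5 lists. Of 15 paralogues of the same families, 0 passed the test by edgeR, with 3 at an unadjusted p under 0.05, 2 called by DESeq2 and 0 by limma-voom. Over all genes the shares were 0.858% passing by edgeR, 12.8% at an unadjusted p under 0.05, 3.24% called by DESeq2 and 0.626% by limma-voom, and 6.91% with groups that did not overlap, against which the counts of each list are to be read. The 4 most abundant were Mef2d (log2 fold change 0.03), Gata5 (0.15), the epicardial and inflow gene Tbx18 (−0.30, adjusted p = 0.104, edgeR) and Gata2, a factor of endothelial and blood cells (0.31, adjusted p = 0.0794, edgeR). Gata2, Tbx18 and the conduction gene Tbx3 (−0.30, adjusted p = 0.234, edgeR) were the 3 whose groups did not overlap. DESeq2 called Gata2 and Tbx18 (adjusted p = 0.00842 and 0.0309, Wald test). Gata1, the erythroid member, was at 5.04 and 3.49 CPM, with groups that overlapped.

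Of 25 cofactors, partners and chromatin regulators, 0 passed by edgeR, with 7 at an unadjusted p under 0.05 (12.8% of all genes), 2 called by DESeq2 (3.24% of all genes) and 0 by limma-voom. The median log2 fold change was 0.02, with 15 positive and 10 negative. The most abundant were Smyd1, a muscle histone methyltransferase (−0.05), Tead1 (−0.09), Smarca4, the BAF complex ATPase (0.02), and Kmt2d (0.16). The groups did not overlap for Smarcd3, the cardiac BAF subunit that works with GATA4 and TBX5, for Srf, the serum response factor, and for Hdac5, a deacetylase that binds MEF2. Smarcd3 had means of 41.4 ± 2.74 CPM (cKO) and 49.8 ± 1.87 CPM (control; log2 fold change −0.27, adjusted p = 0.0564, edgeR), and DESeq2 called it with an adjusted p of 0.00615. Srf had a log2 fold change of −0.18 (adjusted p = 0.158, edgeR) and Hdac5 one of 0.09 (adjusted p = 0.518, edgeR). Zfpm2, the GATA4 cofactor FOG2, had a log2 fold change of −0.17 (adjusted p = 0.329, edgeR), and its paralogue Zfpm1 one of 0.20 (adjusted p = 0.284, edgeR). These 5 and Hdac7 were named after their values were seen, the last because DESeq2 called it as the second cofactor (log2 fold change 0.28, adjusted p = 0.0344).

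Of 25 cardiac target genes, 0 passed by edgeR, with 7 at an unadjusted p under 0.05 (12.8% of all genes), 3 called by DESeq2 (3.24%) and 0 by limma-voom. The median log2 fold change was −0.05, with 8 positive and 17 negative. The 4 most abundant, Actc1, Myh7, Myl2 and Myh6, which encode sarcomere proteins, had log2 fold changes of −0.05, −0.02, −0.12 and 0.04 (adjusted p from 0.528 to 0.959, edgeR). The groups did not overlap for 4 target genes, as for 6.91% of all genes and 11.1% of those with a mean of at least 10 CPM. They are named here for that reason: Pln (phospholamban, which restrains the calcium pump), Gja1 (connexin 43), Irx4 (a ventricular homeodomain factor) and Des (desmin). Pln had means of 83.4 CPM (cKO) and 109 CPM (control; log2 fold change −0.38, adjusted p = 0.0755, edgeR), Gja1 at 217 and 275 CPM (−0.34, adjusted p = 0.0820, edgeR), Irx4 at 110 and 131 CPM (−0.25, adjusted p = 0.0729, edgeR) and Des at 1001.3 and 1106 CPM (−0.14, adjusted p = 0.278, edgeR). The first 3 were the genes called by DESeq2, with an adjusted p of 0.0110, 0.0112 and 0.0109 (Wald test). Nppa and Gja5, targets that TBX5 and NKX2-5 activate together, had log2 fold changes of 0.20 (adjusted p = 0.351, edgeR) and −0.04 (adjusted p = 0.893, edgeR).

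**Figure D5:**
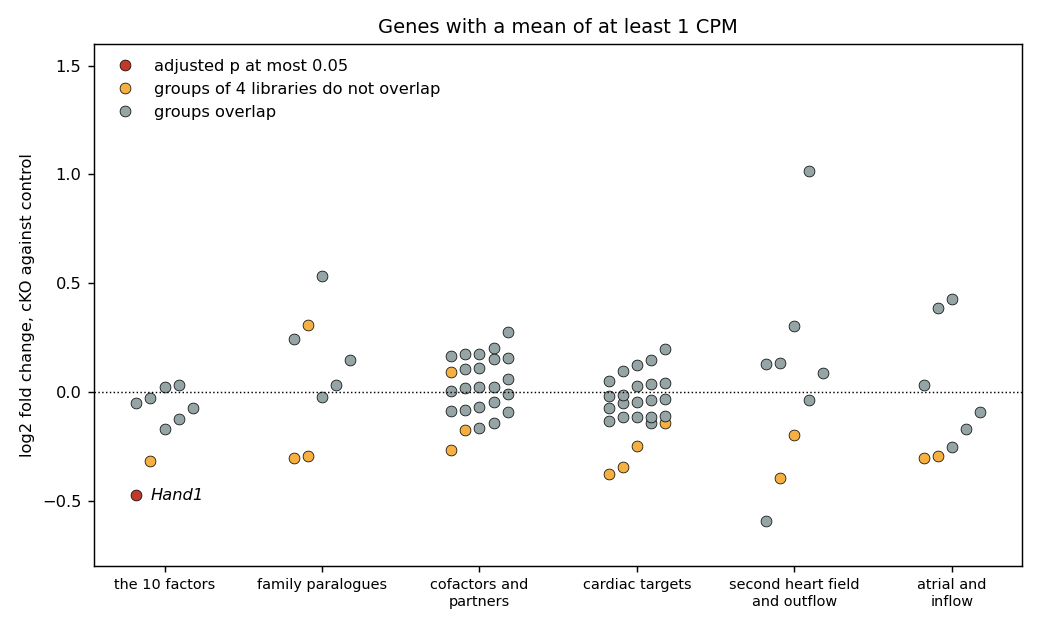
Log2 fold change (vertical axis, cKO against control) of the 10 factors and of the genes of 5 lists with a mean of at least 1 CPM (the factors other than Isl1), 1 point per gene, red where the adjusted p was at most 0.05, orange where the 4 cKO and 4 control libraries did not overlap, grey otherwise. Hand1 is the 1 red point, and the orange points are Nkx2-5 and list genes such as Pln (−0.38), Irx4 (−0.25) and Gata2 (0.31).

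The genes of the second heart field and outflow tract, which share their region with Isl1, were mostly low. Of 13 such genes, 0 passed by edgeR, with 3 at an unadjusted p under 0.05 (12.8% of all genes), 2 called by DESeq2 (3.24%) and 0 by limma-voom. Sema3c, Wnt11 and Foxc2 had log2 fold changes of 0.09, 0.13 and −0.04. Aldh1a2, which makes retinoic acid and is also an epicardial gene, had means of 13.9 CPM (cKO) and 20.9 CPM (control; −0.59, adjusted p = 0.0666, edgeR), and Prdm1 at 2.32 and 1.147 CPM (1.02, adjusted p = 0.0861, edgeR). These 2 were called by DESeq2 (adjusted p = 0.00489 and 0.0119, Wald test). The groups did not overlap for Eya1 (−0.40). Fgf8 was at 0.401 and 0.626 CPM. Tbx1, which marks pharyngeal mesoderm, had at most 4 counts in a library. Markers of foregut endoderm were near absent: Nkx2-1 had 0 counts in all 8 libraries and Shh and Foxa1 at most 2 in a library.

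Of 10 atrial and inflow genes, 0 passed by edgeR, with 6 at an unadjusted p under 0.05 (12.8% of all genes), 2 called by DESeq2 (3.24%) and 0 by limma-voom. These 6 went both ways: Tbx18, Hcn4 and Tbx3 were lower in cKO, and Nr2f2 (log2 fold change 0.43), Stard10 and Sln were higher, Sln on the few counts given below. Angpt1, the pacemaker channel gene Hcn4, Tbx18 and Tbx3 were the most abundant, with log2 fold changes of 0.03, −0.17, −0.30 and −0.30. DESeq2 called Tbx18 and Stard10 (0.39, adjusted p = 0.0284, Wald test). Sln, which encodes the atrial regulator sarcolipin, had 0 counts in 5 of the libraries, the 4 controls included, and at most 4 in a cKO library.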

How the data were processed

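Poly(A) RNA of E10.5 ventricular tissue was sequenced in 8 libraries. The deposited tables hold raw counts by gene symbol and TPM by gene, both made by the authors. The methods name nf-core/rnaseq and GRCm39, and the submitters' processing notes list Trim Galore 0.6.7, HISAT2 2.2.1, StringTie 2.2.1, featureCounts and DESeq2. Positions in the TPM table are those of GRCm38, and the strand setting of counting is not given in the sources used here. The kit does not mark strand.

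Genes with 8 or more counts in all were tested with edgeR 4.0.16 in R 4.3.3 (TMM, quasi-likelihood, Benjamini-Hochberg over 26820 genes, FDR threshold 0.05), cKO against control, 4 libraries each. Alternatives were DESeq2 1.42.0, limma 3.58.1 (voom, or log2 of TPM with a pseudocount of 1 or 0.1), other scalings and filters, a replicate block, and leaving libraries out. Exact permutation tests were two-sided. Scripts were tested on simulated data. The members and gene lists were chosen with earlier results of these data known. Genes were named by rule: the 10 members, Pkn2, list genes past the threshold, the 4 most abundant of each list, genes within 2000 bases of a member, and the 2 genes most alike to each member. Others were named after their values were seen. Single-cell and protein data were not analysed here. Some genes that the rule or the lists hold are not reported here.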

Additional observations from a re-analysis of the deposited data

Results flagged for a closer look

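A library far from the other 3 of its group, by Dixon's 95% criterion, was found in 8 of 134 groups of 4 examined, where chance gives about 1 in 20, and in none of the 10 factors. Among the cofactors, Smyd1 was at 598 CPM in cKO replicate 4 (nearest other cKO library 743 CPM) and Kmt2d at 175 CPM in cKO replicate 3 (nearest 227 CPM). Of the target genes, Actc1 was at 13355 CPM in control replicate 4 (nearest 12065 CPM). Wnt11, of the outflow list, was at 22.3 CPM in control replicate 4 (nearest 27.3 CPM). Of the genes most like a factor, Rnpepl1 was at 47.2 CPM (nearest 52.9 CPM), Enpp1 at 9.31 CPM (nearest 15.0 CPM) and Tbcc at 12.4 CPM (nearest 15.9 CPM) in cKO replicate 1. E2f4 was at 71.1 CPM in control replicate 1 (nearest 65.4 CPM).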

How the results depend on the processing

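Of 189 alternative values for the 10 factors, 172 kept their direction and side of the threshold. Hand1 lost its call in limma on TPM (−0.45, adjusted p = 0.252, with a pseudocount of 1; −0.46, adjusted p = 0.245, with 0.1; adjusted p = 0.0924 with a mean TPM of at least 1) and in 2 of the 8 fits without a library. Those 8 fits gave −0.54 to −0.39. Nkx2-5 was called with DESeq2 (−0.31), with no filter (−0.31) and without cKO replicate 3 (−0.37), and ran from −0.37 to −0.21 over the fits without a library. Signs turned for Gata4 (0.019), Mef2a (−0.0090) and Mef2c (−0.034) without cKO replicate 1, and for Mef2a (−0.019) and Mef2c (−0.0092) without control replicate 1. Over the fits without a library, Gata4 ran from −0.045 to 0.019, Mef2a from −0.019 to 0.080 and Mef2c from −0.034 to 0.079, and, with no change of sign, Gata6 from −0.09 to −0.02, Tbx5 from −0.07 to −0.0016, Hand2 from −0.17 to −0.04 and Isl1 from 0.0023 to 0.91. Without cKO replicates 1 and 4 together, an alternative chosen after seeing the data, Gata4 was 0.0045, Tbx5 0.010, Mef2a −0.022 and Mef2c −0.0011. In the same fit Nkx2-5 was −0.20 (adjusted p = 0.327, edgeR), Tbx20 −0.09, Hand2 −0.05, Gata6 −0.03 and Isl1 0.40. The causes were not tested.

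Of the factors, 2 were called with DESeq2, 2 with no filter, 0 in each fit on TPM and 0 to 2 without a library. Over all genes the 230 calls became 867 with DESeq2, 878 with no filter, 1, 7 and 22 on TPM (pseudocount 1, pseudocount 0.1, mean TPM of at least 1), 103 without cKO replicates 1 and 4, and 67 to 744 without a library. Without cKO replicate 1 there were 71, without cKO replicate 3 744, without control replicates 1, 2, 3 and 4 67, 135, 87 and 69. DESeq2 and no filter each called 2 paralogues, 2 cofactors, 3 targets, 2 second heart field and 2 atrial genes. Without a library the ranges were 0 to 1, 0 to 3, 0 to 3, 0 to 1 and 0 to 1. Without cKO replicates 1 and 4, 1 target and 1 second heart field gene were called.

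Same-numbered cKO and control libraries did not deviate together (correlations −0.30, −0.05, 0.04 and −0.20 over 9858 genes), and 0 of 8 libraries correlated best with their own number. Whether same-numbered libraries share a litter or a preparation is not given in the sources used here, and these correlations cannot exclude it. With the replicate block 380 genes were called, with 1 paralogue, 2 targets, 1 second heart field and 1 atrial gene, and Hand1 was at −0.48 (adjusted p = 0.00427, edgeR). With 10 to 87 counts a library, Isl1 is the factor with the least depth.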
